A study of Homo sapiens with 4 samples.

Results

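The genes of replication licensing and of the replisome were followed in RPE-1 cells between 4 h and 8 h of merbarone treatment. They are 53 genes, chosen by name from the machinery that loads and fires replication origins and copies DNA, out of the 23459 genes listed in the count files. RPE-1 is a human retinal pigment epithelial cell line, immortalized with telomerase (hTERT RPE-1, wild type), and merbarone inhibits the catalytic cycle of type II DNA topoisomerases. All cells had been held for 48 h in medium with 0.1% serum, which the study used to arrest them in G0/G1, and then received 200 μM merbarone for 4 h (2 libraries) or 8 h (2 libraries). Untreated cells were not analysed here, so every comparison is between the later and the earlier treated cells, and the time under merbarone cannot be told apart from the added time in low serum.

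Replication is prepared in G1, when the origin recognition complex (ORC) marks origins and CDC6 and CDT1 load the ring-shaped MCM2-7 helicase onto DNA. In S phase the kinase CDC7-DBF4, the firing factors and CDC45 with the GINS complex turn the loaded ring into the active CMG helicase (CDC45, MCM2-7 and GINS), behind which polymerase alpha-primase, polymerases delta and epsilon, the clamp PCNA and its loader RFC copy both strands. Many of these genes are transcribed at the G1/S transition under E2F factors and are low in quiescent cells.

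The libraries held between 8064450 and 10324697 reads counted on genes, and the 53 genes took 33482 and 33007 of them at 4 h and 17975 and 14719 at 8 h. In levels scaled by TMM normalization (read counts scaled to library size, CPM), that is a summed level of 3134.1 and 3121.4 CPM at 4 h and 1917.5 and 1907.3 CPM at 8 h. Every gene exceeded 1 CPM in all 4 libraries, so none was kept in the test only through the group in which it was high. The lowest was POLE2, with 9 reads (1.12 CPM without TMM) in 8 h replicate 2, and none fell under the limit. Of the 12 markers of retinal pigment epithelium examined, 4 exceeded 1 CPM in 2 or more libraries (MITF, OTX2, SERPINF1 and PMEL, the last with 7 to 12 reads). TYR and DCT had no read in any library. The summed level of the list was 96.6 to 102.7 CPM at 4 h and 110.5 to 118.9 CPM at 8 h, most of it from MITF. The simple epithelium markers KRT8 and KRT18 summed to 687.1 to 742 CPM at 4 h and 592.5 to 644.1 CPM at 8 h. KRT18 was lower at 8 h (335.1 and 367 CPM at 4 h, 244.7 and 249.8 CPM at 8 h), while the times of KRT8 overlapped. The 4 fibroblast markers summed to 892.7 to 916.3 CPM at 4 h and 848.3 to 917.4 CPM at 8 h. Most of that came from THY1 and PDGFRB, whose times overlapped, and COL1A2 was below the limit. COL1A1 was lower at 8 h, with 82.1 and 85 CPM at 4 h and 42.8 and 53.7 CPM at 8 h. The 3 blood cell markers summed to at most 0.749 CPM in any library.

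Replication genes were lower at 8 h almost throughout. Of the 53 genes, 47 fell between 4 h and 8 h in edgeR's quasi-likelihood test (Benjamini-Hochberg adjusted p below 0.05 over all 12559 genes tested), or 88.7%, against 18.8% of all genes tested. None rose, against 19.9% of all genes tested. With the study's threshold of an absolute log2 fold change (log2FC) above 1 added, which defines a differentially expressed gene (DEG), 22 fell, or 41.5%, against 3.88% of all genes tested, and 0 rose, against 1.45%. At an unadjusted p below 0.05 and by limma-voom and DESeq2, the number that rose was 0 as well. For 50 of the 53 genes, the higher 8 h library lay below the lower 4 h library, which held for 34.9% of all genes tested. The median log2FC was −0.84, and that of all genes tested was 0.00.

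**Figure D1:**
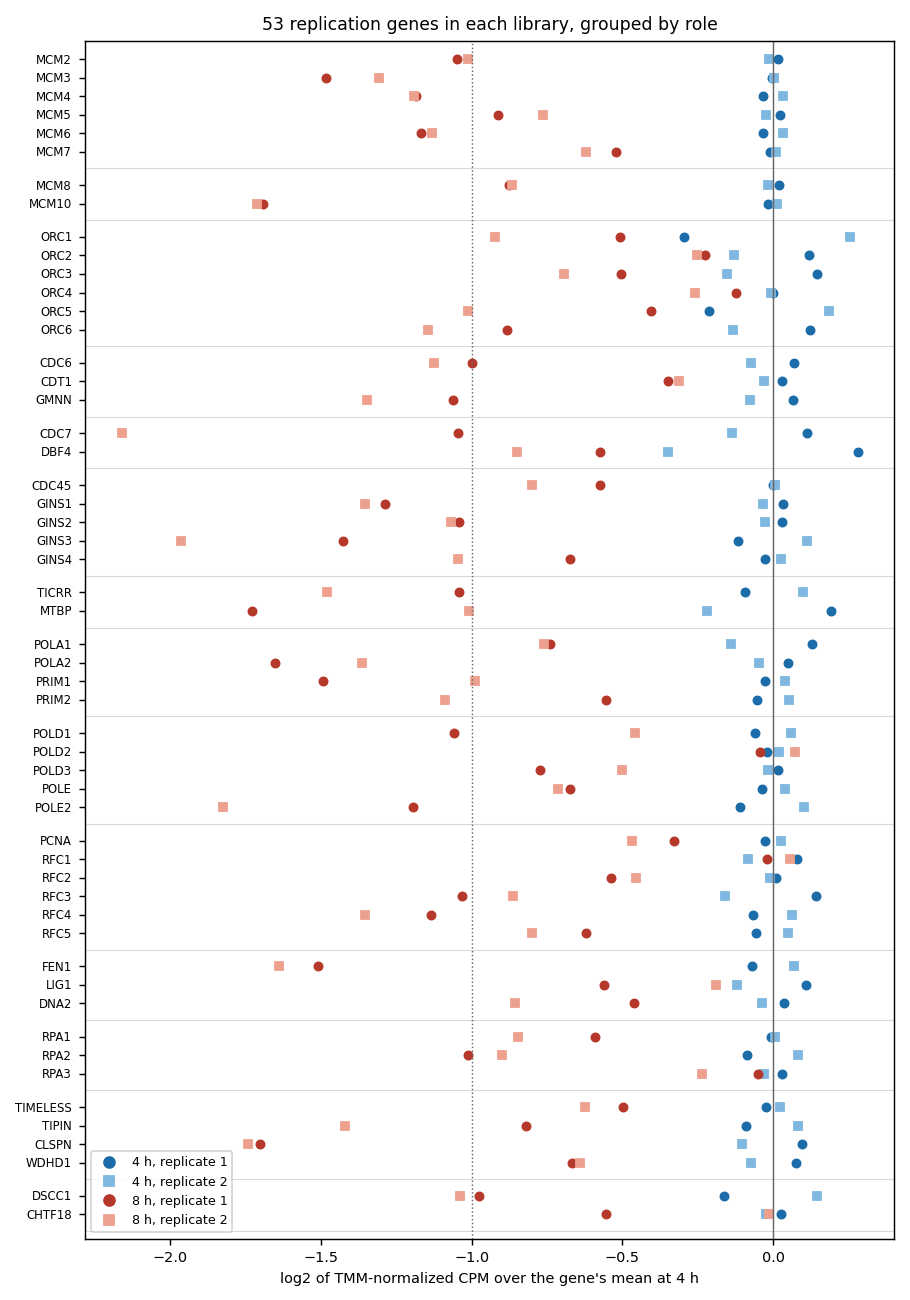
Level of each of the 53 replication genes in each library, as the log2 ratio to the gene's own mean at 4 h (x axis), with genes in rows grouped by role. The 4 h libraries (blue) lie around 0, the 8 h libraries (red) lie to the left of them for 50 genes, and POLD2, RFC1 and CHTF18 are the genes whose times overlap.

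Markers of cycling cells were lower as well. The proliferation markers MKI67, CCNB1 and CDK1 were all DEGs, with log2FC of −1.15, −1.64 and −1.22, and their summed level was 421.6 to 426.9 CPM at 4 h and 165.7 to 193.3 CPM at 8 h. In RNA from whole cultures, fewer cells in or near S phase and less of each mRNA per cell cannot be told apart, and the part of a change in cycling cells in the falls below was not tested.

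The promoters of the replication genes, whatever their fold change, were searched for the binding word of E2F. RefSeq promoters (GRCh38.p14, 250 bases before to 50 bases after the start of the gene) were at hand for 44 of the 53 genes. The words searched on both strands were TTTGGCGC, TTTCCCGC, TTTGCCGC and TTTCGCGC, which can overlap one another. At least 1 of them lay in 19 of the 44 promoters (43.2%), against 3.33% of all 27305 promoters and 5.55% of the 10183 promoters of genes tested. Of the DEGs 10 of 19 had a word (52.6%), and of the others 9 of 25 (36.0%). With the 7-base words that lack the first T, the shares were 65.9% of the replication genes, 13.1% of all promoters and 21.1% of those of genes tested. By these shorter words DEGs and others lay close, with 13 of 19 (68.4%) and 16 of 25 (64.0%). The word TTTGAA of the CHR element, found in promoters of G2/M genes, was in 1 of the 44 (DBF4), or 2.27%, against 15.4% of all promoters and 9.58% of those of genes tested. A match to a short word is a description of the sequence and no evidence of binding. The genes were chosen by role, and a part of E2F in their falls was not tested.

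Of the DEGs with a word, 9 are shown with 10 bases on either side of the word nearest to the start, to show the letters they share. E2F words on either strand are in capitals, sequences run 5′ to 3′ along the gene's strand and coordinates are those of GRCh38.p14.
MCM2 (chr3:127598403-127598430, plus strand): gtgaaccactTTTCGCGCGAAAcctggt
MCM3 (chr6:52284729-52284756, minus strand): gttcggaagtTTTCGCGCcggggtggag
MCM6 (chr2:135876512-135876539, minus strand): gtcaggTTTGGCGCGAAAtctccagctc
CDC6 (chr17:40287876-40287903, plus strand): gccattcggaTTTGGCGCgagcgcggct
GINS1 (chr20:25407668-25407695, plus strand): gctttgttcgGCGCCAAAgcgcggagcg
GINS2 (chr16:85688968-85688995, minus strand): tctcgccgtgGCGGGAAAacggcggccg
GINS3 (chr16:58392456-58392483, plus strand): gtccccgggcGCGGGAAAcgagtttcaa
POLA2 (chr11:65261899-65261926, plus strand): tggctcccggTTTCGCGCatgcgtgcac
POLE2 (chr14:49688202-49688229, minus strand): tgcggcggtgGCGCCAAAtcgcaaatat
In MCM2 and MCM6 a pair of words on opposite strands overlapped and gave a single run of 12 capitals, TTTCGCGCGAAA and TTTGGCGCGAAA. In 16 of the 19 genes with a word, a word began within 60 bases of the start of the gene.

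The promoters of the 2 genes with the largest falls, CLSPN and MCM10, and of the 2 genes with a log2FC nearest to 0, POLD2 and RFC1, are shown whole. E2F words are again in capitals, and of the 8-base words only CLSPN has one. Of the 7-base words, RFC1 has 2, and MCM10 and POLD2 have 0. They were picked for their fold changes, so they illustrate and test nothing.
CLSPN (chr1:35769929-35770228, minus strand): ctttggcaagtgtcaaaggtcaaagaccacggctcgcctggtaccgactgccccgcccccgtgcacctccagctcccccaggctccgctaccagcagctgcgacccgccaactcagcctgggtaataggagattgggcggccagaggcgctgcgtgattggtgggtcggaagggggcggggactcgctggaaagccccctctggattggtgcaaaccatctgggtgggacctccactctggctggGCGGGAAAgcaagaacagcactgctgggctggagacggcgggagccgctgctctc
MCM10 (chr10:13161308-13161607, plus strand): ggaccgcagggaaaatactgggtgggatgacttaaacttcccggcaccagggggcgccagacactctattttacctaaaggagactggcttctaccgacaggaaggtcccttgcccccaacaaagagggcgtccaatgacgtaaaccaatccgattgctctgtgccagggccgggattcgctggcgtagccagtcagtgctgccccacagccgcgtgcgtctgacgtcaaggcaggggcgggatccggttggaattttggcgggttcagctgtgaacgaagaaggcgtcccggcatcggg
POLD2 (chr7:44123499-44123798, minus strand): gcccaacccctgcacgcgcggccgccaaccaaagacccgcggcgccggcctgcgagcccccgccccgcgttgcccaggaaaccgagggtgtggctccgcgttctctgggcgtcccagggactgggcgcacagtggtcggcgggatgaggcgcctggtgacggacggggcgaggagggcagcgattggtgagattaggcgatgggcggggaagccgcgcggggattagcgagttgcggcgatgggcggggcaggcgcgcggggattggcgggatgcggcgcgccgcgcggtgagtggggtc
RFC1 (chr4:39366313-39366612, minus strand): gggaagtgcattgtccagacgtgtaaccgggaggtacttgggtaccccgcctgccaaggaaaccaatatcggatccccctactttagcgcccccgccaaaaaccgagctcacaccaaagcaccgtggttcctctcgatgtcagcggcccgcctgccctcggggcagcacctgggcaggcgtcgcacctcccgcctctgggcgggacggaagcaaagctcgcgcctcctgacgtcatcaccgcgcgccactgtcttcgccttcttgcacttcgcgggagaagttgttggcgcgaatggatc
The median log2FC was −1.03 for the replication genes with a word and −0.70 for those without, a difference that was not tested, and single genes departed from that order. MCM10 has none of the words searched and a log2FC of −1.70, next to −1.72 for CLSPN. The MCM10 promoter does hold TTTGGCGG, which differs from the searched TTTGGCGC in the last letter. CDT1, LIG1 and PCNA, each with a word, had log2FC of −0.33, −0.37 and −0.40.

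All 6 subunits of the MCM2-7 helicase fell, and 4 of them were DEGs. MCM3 fell furthest, from 192.3 and 193.3 CPM at 4 h to 68.9 and 78.0 CPM at 8 h (log2FC −1.39, standard error 0.09, edgeR adjusted p = 1.11e-09). The 8 h level was 38.0% of the 4 h level. MCM4 went from 196.6 and 205.9 CPM to 88.5 and 88.1 CPM (log2FC −1.19, standard error 0.08, edgeR adjusted p = 2.66e-09). For MCM6 (chromosome 2, 136597196 to 136634013, minus strand, hg19) the levels were 101.1 and 105.8 CPM at 4 h and 46.1 and 47.2 CPM at 8 h (log2FC −1.15, standard error 0.09, edgeR adjusted p = 1.8e-08). Replicates of these subunits lay close together and the times were far apart. MCM2 (chromosome 3, 127317253 to 127341279, plus strand, hg19) went from 119.7 and 117.4 CPM to 57.3 and 58.8 CPM (log2FC −1.03, standard error 0.09, edgeR adjusted p = 3.9e-08).

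The other two subunits fell by less. MCM5 had 108.8 and 105.3 CPM at 4 h and 56.9 and 63.1 CPM at 8 h (log2FC −0.84, standard error 0.09, edgeR adjusted p = 8.41e-07). MCM7, the most abundant subunit, kept 67.4% of its level, with 287.9 and 292.2 CPM at 4 h and 202.2 and 188.8 CPM at 8 h (log2FC −0.57, standard error 0.08, edgeR adjusted p = 1.02e-05). MCM7 overlaps AP4M1 on the opposite strand, and whether reads were counted by strand is not given in the sources used here. The subunits thus drifted apart, since the log2 ratio of MCM7 to the mean of the 6 subunits rose from 0.88 and 0.89 at 4 h to 1.42 and 1.27 at 8 h, while that of MCM3 went from 0.30 and 0.30 to −0.13 and 0.00. Per kilobase of the canonical transcript, the level of MCM7 was 117 and 118 CPM per kb at 4 h, above the 62.7 and 63.0 of MCM3 and the 26.9 and 28.2 of MCM6, the lowest of the 6. These scaled levels are approximate, as reads across exon junctions were lost in mapping.

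**Figure D2:**
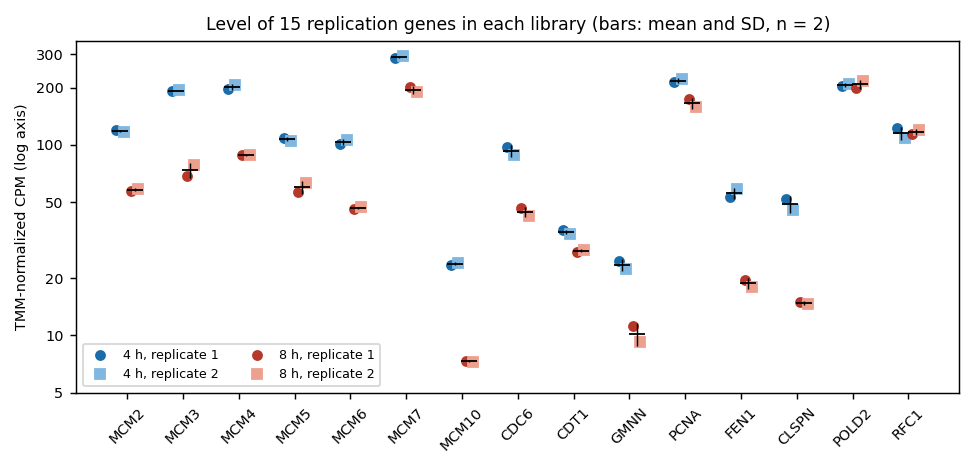
Normalized CPM (log axis) of 15 replication genes in each of the 4 libraries, with bars for the mean and SD of the 2 replicates. MCM10, FEN1 and CLSPN show the widest gaps between 4 h and 8 h, while POLD2 (200.3 to 216.8 CPM) and RFC1 (109.3 to 122.3 CPM) have overlapping times.

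MCM10, which binds the active helicase and is needed for origins to unwind, had one of the largest falls. It went from 23.5 and 24.0 CPM to 7.36 and 7.26 CPM, or 30.8% of the 4 h level (log2FC −1.70, standard error 0.17, edgeR adjusted p = 2.82e-07). MCM8, a relative of the ring subunits that acts in recombination repair, fell from 32.3 and 31.5 CPM to 17.4 and 17.5 CPM (log2FC −0.87, standard error 0.13, edgeR adjusted p = 4.13e-05). It overlaps another protein-coding gene on the same strand.

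Of the 6 subunits of ORC, the complex that marks origins, 4 fell and 1 was a DEG. ORC6, its smallest subunit, fell from 52.0 and 43.6 CPM to 25.9 and 21.6 CPM (log2FC −1.0, standard error 0.13, edgeR adjusted p = 6.52e-06), and its fold change stood just past the DEG threshold. ORC1, whose protein is the subunit that comes and goes with the cell cycle, had 11.0 and 16.1 CPM at 4 h and 9.49 and 7.13 CPM at 8 h (log2FC −0.69, edgeR adjusted p = 0.0169). ORC3 (log2FC −0.59, edgeR adjusted p = 0.00426) and ORC5 (log2FC −0.66, edgeR adjusted p = 0.0143) also fell. The tests of ORC2 and ORC4 did not pass, with log2FC of −0.24 (95% interval −0.57 to 0.09) and −0.18 (−0.49 to 0.12). The adjusted p of ORC6 stayed below 0.05 in every alternative run, and those of the others did not. Without 4 h replicate 2, ORC1 had a log2FC of −0.39 (edgeR adjusted p = 0.311) and ORC5 of −0.45 (0.217), without 8 h replicate 2 they had −0.51 (0.0673) and −0.41 (0.104), and without 8 h replicate 1 ORC5 had −1.01. Without 4 h replicate 1, ORC3 had −0.44 (edgeR adjusted p = 0.109), and with DESeq2 the adjusted p of ORC1 was 0.0691 and that of ORC5 0.0543.

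The loading factors and their inhibitor changed unequally. CDC6, an ATPase that joins ORC to load the MCM ring, fell from 97.6 and 88.4 CPM to 46.5 and 42.6 CPM (log2FC −1.06, standard error 0.10, edgeR adjusted p = 1.2e-07). CDT1 (chromosome 16, 88870197 to 88875666, plus strand, hg19), which brings the ring to CDC6, had 35.6 and 34.2 CPM at 4 h and 27.4 and 28.1 CPM at 8 h, a smaller fall (log2FC −0.33, standard error 0.12, edgeR adjusted p = 0.0335). GMNN (chromosome 6, 24775159 to 24786327, plus strand, hg19) encodes geminin, which binds CDT1 and blocks reloading in S and G2. Its level went from 24.5 and 22.2 CPM to 11.2 and 9.20 CPM (log2FC −1.19, standard error 0.17, edgeR adjusted p = 1.62e-05). The fall of CDT1 was near the threshold, and its adjusted p was 0.168 without 4 h replicate 1, 0.111 without 4 h replicate 2 and 0.0884 without 8 h replicate 1 in edgeR, with log2FC of −0.31, −0.36 and −0.31, and 0.145 in DESeq2.

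The balance of CDT1 mRNA to that of its inhibitor therefore moved toward CDT1. The log2 ratio of CDT1 to GMNN went from 0.53 and 0.62 at 4 h to 1.28 and 1.59 at 8 h, a rise of 0.86, or 1.81-fold, where replicates differed by at most 0.31. The log2 ratio of CDC6 to CDT1 went the other way, from 1.45 and 1.36 to 0.76 and 0.60. Such ratios do not depend on how libraries are scaled. With 2 libraries per time, an exact two-sided permutation test cannot give a p below 0.333, which is the value for both ratios.

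CDC7 and DBF4, the catalytic and the activating subunit of the kinase that phosphorylates the loaded MCM ring, had few reads. CDC7 fell from 127 and 106 reads at 4 h to 50 and 19 reads at 8 h, where the replicates stood far apart at 5.33 and 2.46 CPM (log2FC −1.45, standard error 0.27, edgeR adjusted p = 0.000273). Its log2FC was −2.15 without 8 h replicate 1 and −1.04 without 8 h replicate 2. DBF4 had 9.64 and 6.24 CPM at 4 h and 5.33 and 4.41 CPM at 8 h (log2FC −0.70, standard error 0.25, edgeR adjusted p = 0.0366). Its call was lost without 4 h replicate 1 (log2FC −0.36, edgeR adjusted p = 0.442), without 8 h replicate 2 (log2FC −0.57, edgeR adjusted p = 0.0997), in limma-voom (adjusted p = 0.0578) and in DESeq2 (adjusted p = 0.156). TICRR and MTBP, partners that recruit CDC45 to origins and commit them to fire, were both DEGs. TICRR went from 10.5 and 12.0 CPM to 5.44 and 4.02 CPM (log2FC −1.23, standard error 0.22, edgeR adjusted p = 0.000244), and MTBP from 8.05 and 6.05 CPM to 2.13 and 3.50 CPM (log2FC −1.35, standard error 0.29, edgeR adjusted p = 0.00107).

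The remaining parts of the CMG helicase all fell. GINS3 fell furthest, from 23.8 and 27.9 CPM to 9.60 and 6.61 CPM, or 31.8% of the 4 h level (log2FC −1.65, standard error 0.18, edgeR adjusted p = 9.95e-07). GINS1 went from 17.3 and 16.5 CPM to 6.93 and 6.61 CPM (log2FC −1.31, standard error 0.19, edgeR adjusted p = 1.86e-05), and GINS2 from 34.9 and 33.6 CPM to 16.6 and 16.3 CPM (log2FC −1.05, standard error 0.13, edgeR adjusted p = 4.87e-06). The fourth subunit, GINS4, was the most abundant in CPM and fell by less, from 67.2 and 69.8 CPM to 42.9 and 33.2 CPM (log2FC −0.84, standard error 0.11, edgeR adjusted p = 1.22e-05). CDC45, the factor that joins GINS and the MCM ring, had 28.0 and 28.1 CPM at 4 h and 18.8 and 16.1 CPM at 8 h (log2FC −0.68, standard error 0.14, edgeR adjusted p = 0.000751). In each of the 5 genes, the higher 8 h library lay below the lower 4 h library, as it did in 34.9% of all genes tested.

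**Figure D3:**
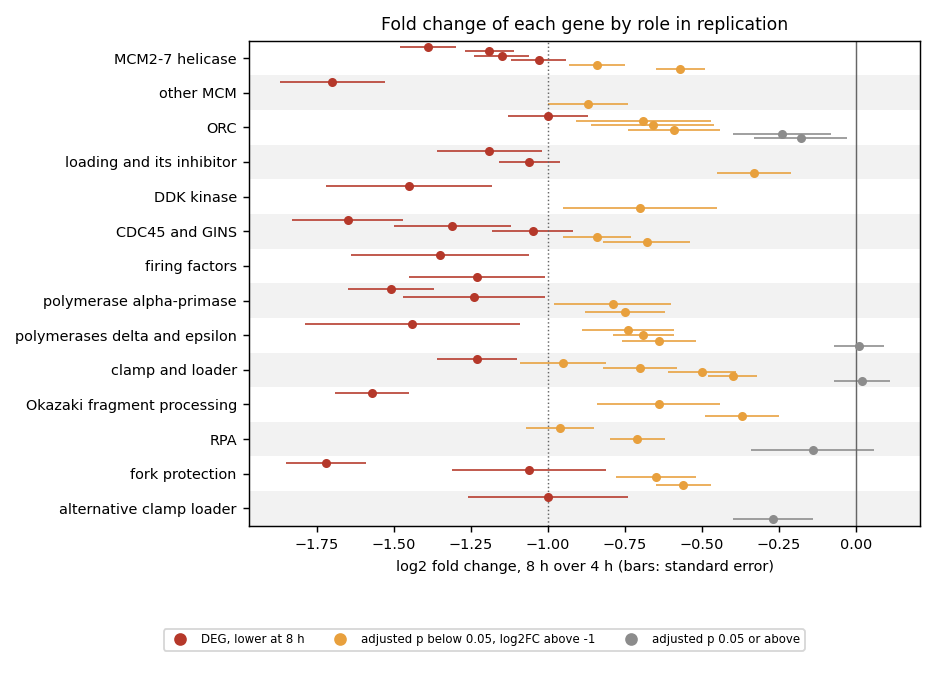
log2 fold change of each replication gene, 8 h over 4 h (x axis), by role (rows), with bars for the standard error. Red points are the 22 DEGs, orange points the 25 genes that passed the adjusted p alone and grey points the 6 that did not. The dotted line marks a log2FC of −1.

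In polymerase alpha-primase, which lays down the RNA-DNA primers, 1 subunit of each pair was a DEG. The regulatory subunit POLA2 fell from 38.1 and 35.6 CPM to 11.7 and 14.3 CPM (log2FC −1.51, standard error 0.14, edgeR adjusted p = 1.49e-07). The catalytic subunit POLA1 fell from 39.8 and 33.0 CPM to 21.8 and 21.5 CPM (log2FC −0.75, standard error 0.13, edgeR adjusted p = 0.000177). The log2 ratio of POLA2 to POLA1 thus went from −0.06 and 0.11 at 4 h to −0.88 and −0.59 at 8 h. PRIM1, the catalytic primase subunit, went from 10.6 and 11.1 CPM to 3.84 and 5.44 CPM (log2FC −1.24, standard error 0.23, edgeR adjusted p = 0.000273), and PRIM2, the large subunit, from 15.4 and 16.6 CPM to 10.9 and 7.52 CPM (log2FC −0.79, standard error 0.19, edgeR adjusted p = 0.00298). The ratio of these primase subunits overlapped between the times, since the 8 h replicates were 1.00 apart on the log2 scale. PRIM1 lies over NACA on the same strand in the annotation, so its reads may be shared. The same holds for POLA2, which overlaps another protein-coding gene on its strand.

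In the replicative polymerases, partners differed. POLD2, an accessory subunit of polymerase delta, had 203.6 and 209.2 CPM at 4 h and 200.3 and 216.8 CPM at 8 h, and the times overlapped (log2FC 0.01, 95% interval −0.15 to 0.18, edgeR adjusted p = 0.901). The catalytic subunit POLD1 fell from 37.6 and 40.8 CPM to 18.8 and 28.5 CPM (log2FC −0.74, standard error 0.15, edgeR adjusted p = 0.000677), and the log2FC was −0.46 without 8 h replicate 1 and −1.06 without 8 h replicate 2. POLD1 overlaps another protein-coding gene on the same strand, so its reads may be shared. POLD3, a further accessory subunit, fell from 44.9 and 43.9 CPM to 26.0 and 31.4 CPM (log2FC −0.64, standard error 0.12, edgeR adjusted p = 0.000343). In polymerase epsilon, which copies the leading strand, the catalytic POLE had 76.2 and 80.3 CPM at 4 h and 49.0 and 47.7 CPM at 8 h (log2FC −0.69, standard error 0.10, edgeR adjusted p = 1.37e-05). Its partner POLE2 was the least abundant of the 53 genes in CPM, with 41 and 47 reads at 4 h and 17 and 9 at 8 h, and was a DEG (log2FC −1.44, standard error 0.35, edgeR adjusted p = 0.00263).

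PCNA, the sliding clamp, fell by little. It had 213.7 and 221.8 CPM at 4 h and 173.3 and 157.6 CPM at 8 h, or 76.0% of the 4 h level (log2FC −0.40, standard error 0.08, edgeR adjusted p = 0.000641). The clamp loader split between its large subunit and the small ones. RFC1, the large subunit, had 122.3 and 109.3 CPM at 4 h and 114.2 and 120.4 CPM at 8 h (log2FC 0.02, 95% interval −0.16 to 0.20, edgeR adjusted p = 0.890). RFC4 fell from 43.0 and 47.0 CPM to 20.5 and 17.6 CPM and was a DEG (log2FC −1.23, standard error 0.13, edgeR adjusted p = 4.11e-07). The other small subunits RFC3, RFC5 and RFC2 fell with log2FC of −0.95, −0.70 and −0.50. The log2 ratio of the mean of RFC2 to RFC5 to RFC1 went from −1.52 and −1.38 at 4 h to −2.26 and −2.37 at 8 h, a fall to 0.551 of the earlier ratio. RFC4 overlaps EIF4A2, and RFC5 overlaps WSB2, on the opposite strand. In the alternative loader that holds the same small subunits, DSCC1 went from 6.18 and 7.66 CPM to 3.52 and 3.37 CPM (log2FC −1.0, standard error 0.26, edgeR adjusted p = 0.00430), a call that was lost without 4 h replicate 2 (log2FC −0.84, edgeR adjusted p = 0.0772). Its large subunit CHTF18 had 59.8 and 57.9 CPM at 4 h and 40.0 and 58.3 CPM at 8 h, so its 8 h replicates disagreed (log2FC −0.27, 95% interval −0.54 to 0.00, edgeR adjusted p = 0.109), and the value rested on which of them was kept. Its log2FC was −0.01 without 8 h replicate 1 and −0.56 without 8 h replicate 2. With library size alone it was −0.38 (edgeR adjusted p = 0.0226). With the replicate number as a block the test passed as well (edgeR adjusted p = 0.0152). The p-values of that run were much smaller for clear falls too, so this pass adds little.

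**Figure D4:**
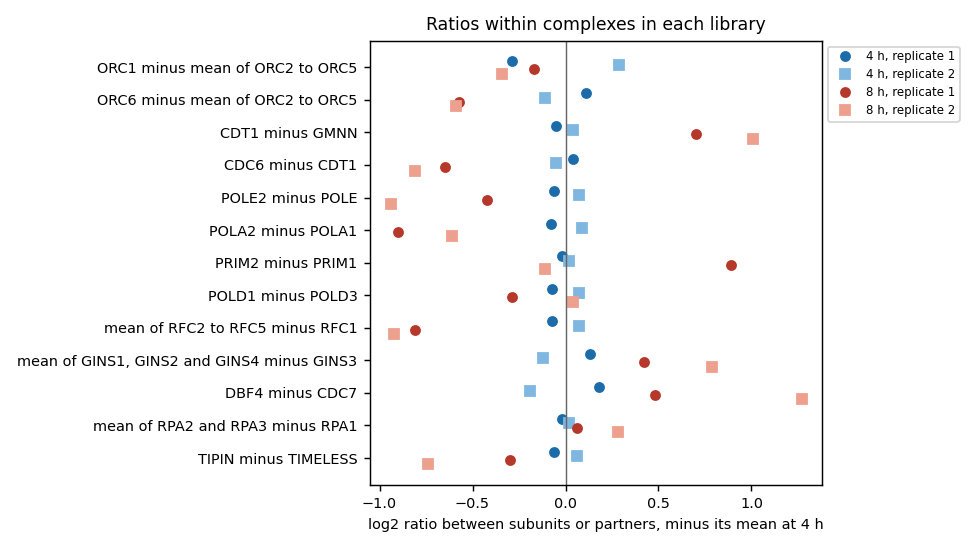
Log2 ratios between subunits or partners of the same complex in each library, each shown as its difference from the mean ratio at 4 h (x axis). CDT1 against GMNN lies to the right of 0 at 8 h, and the small RFC subunits against RFC1, CDC6 against CDT1 and POLA2 against POLA1 lie to the left, while PRIM2 against PRIM1, POLD1 against POLD3 and ORC1 against ORC2 to ORC5 overlap between times.

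Among the enzymes that join Okazaki fragments, the falls ranged widely. FEN1, the nuclease that trims the flaps, fell from 53.1 and 58.5 CPM to 19.6 and 17.9 CPM, or 33.7% of the 4 h level (log2FC −1.57, standard error 0.12, edgeR adjusted p = 1.1e-08), and it overlaps FADS2 on the same strand. LIG1, the ligase that seals the nicks, had 63.8 and 54.4 CPM at 4 h and 40.1 and 51.8 CPM at 8 h (log2FC −0.37, standard error 0.12, edgeR adjusted p = 0.0207). DNA2, a nuclease for long flaps, had 12.5 and 11.9 CPM at 4 h and 8.85 and 6.74 CPM at 8 h (log2FC −0.64, edgeR adjusted p = 0.0159). The calls of both hung on single libraries. For LIG1 the log2FC was −0.26 without 4 h replicate 1 (edgeR adjusted p = 0.242), −0.19 without 8 h replicate 1 (0.217) and −0.56 without 8 h replicate 2, and DESeq2 gave an adjusted p of 0.0774. For DNA2 it was −0.61 without 4 h replicate 1 (edgeR adjusted p = 0.0979), −0.67 without 4 h replicate 2 (0.0654) and −0.47 without 8 h replicate 2 (0.0992), and DESeq2 gave an adjusted p of 0.0856.

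RPA coats the single-stranded DNA behind the helicase. RPA2 fell from 60.5 and 68.1 CPM to 31.9 and 34.5 CPM (log2FC −0.96, standard error 0.11, edgeR adjusted p = 1.44e-06), just short of the DEG threshold, as was RFC3. RPA1, the large subunit, fell from 120.5 and 121.6 CPM to 80.4 and 67.3 CPM (log2FC −0.71, standard error 0.09, edgeR adjusted p = 8.62e-06). The small subunit RPA3 did not pass, with 9.36 and 8.98 CPM at 4 h and 8.85 and 7.78 CPM at 8 h (log2FC −0.14, 95% interval −0.55 to 0.28, edgeR adjusted p = 0.621).

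CLSPN, which encodes claspin, a fork component that relays the ATR checkpoint signal to CHK1, had the largest fall of the 53 genes. It went from 52.2 and 45.4 CPM to 15.0 and 14.6 CPM, or 30.5% of the 4 h level (log2FC −1.72, standard error 0.13, edgeR adjusted p = 1.01e-08). TIMELESS and TIPIN form the fork protection complex that holds claspin at the fork. TIPIN went from 8.14 and 9.17 CPM to 4.91 and 3.24 CPM (log2FC −1.06, standard error 0.25, edgeR adjusted p = 0.00192), and TIMELESS from 96.2 and 99.5 CPM to 69.3 and 63.5 CPM (log2FC −0.56, standard error 0.09, edgeR adjusted p = 7.97e-05). WDHD1, which ties polymerase alpha to the helicase, fell from 37.6 and 33.9 CPM to 22.5 and 22.9 CPM (log2FC −0.65, standard error 0.13, edgeR adjusted p = 0.000405).

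Other genes around the fork were described from 3 further lists. Of 12 genes of replication-coupled chromatin assembly, 11 fell (91.7%, against 18.8% of all genes tested) and 0 rose (against 19.9%), with a median log2FC of −0.83. They include UHRF1 (log2FC −1.59), which guides maintenance methylation, CHAF1B (−1.29) and CHAF1A (−1.12) of the histone chaperone CAF-1, and ASF1B (−1.20). These 4 were the DEGs of the list, or 33.3%, against 3.88% of all genes tested. Of 27 accessory factors of forks and origins, 17 fell (63.0%, against the same 18.8%) and 0 rose, with a median of −0.44. The DEGs numbered 3, or 11.1%, against the same 3.88%. They were DTL (log2FC −1.68), the substrate receptor of the ubiquitin ligase that destroys CDT1, ATAD5 (−1.44), which unloads PCNA, and DONSON (−1.0), a factor of CMG assembly. The other subunits of that ligase did not follow DTL together, since CUL4A fell (log2FC −0.68), CUL4B fell by less (−0.31) and DDB1 did not pass (0.12, edgeR adjusted p = 0.218). Of the accessory polymerase subunits, POLE3 fell (log2FC −0.39, edgeR adjusted p = 0.00167), and POLD4 and POLE4 did not pass, with log2FC of 0.14 and 0.09.

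DNA polymerases outside the replisome formed the third list. Of the 14 tested, POLQ fell (log2FC −0.54, edgeR adjusted p = 0.0274), REV3L, the catalytic subunit of translesion polymerase zeta, rose (log2FC 0.52, edgeR adjusted p = 0.000489), and 12 did not pass, as was so for 7692 of all 12559 genes tested. The median of the list was 0.00. DNTT had no read in any library. The translesion polymerases POLH and POLK were among those that did not pass, with log2FC of 0.06 and −0.04, as was the repair polymerase POLB (−0.22).

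**Figure D5:**
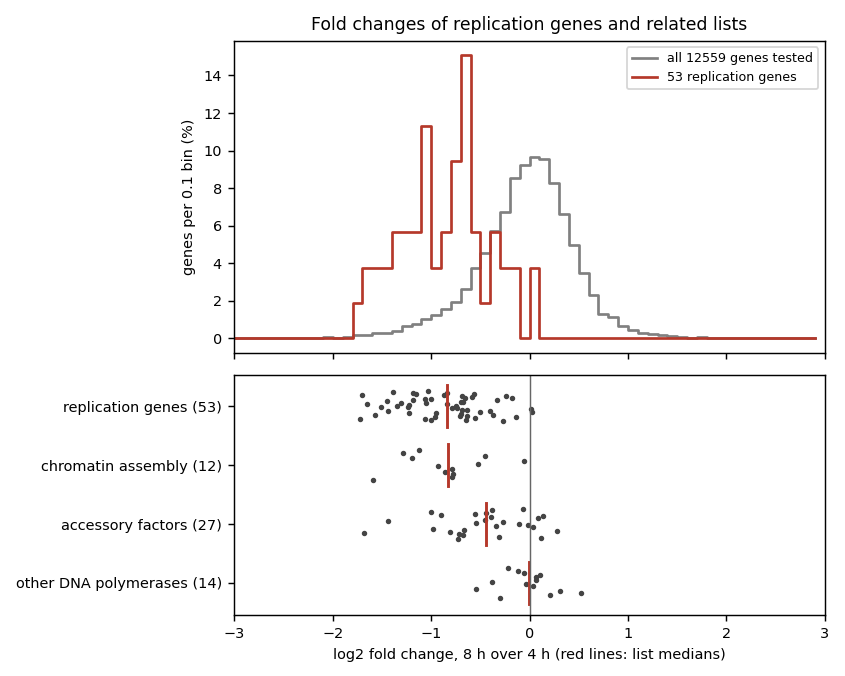
Distribution of log2 fold changes, 8 h over 4 h. The upper panel gives the percentage of genes per bin of 0.1 for all 12559 genes tested (grey) and for the 53 replication genes (red), and the lower panel gives each gene of the 4 lists as a point with the list median as a red line, at −0.84, −0.83, −0.44 and 0.00 from top to bottom.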

How the data were processed

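RNA-Seq was performed on 4 libraries of hTERT RPE-1 cells, grouped by the time of merbarone treatment and the replicate number in the sample labels. Per the study's methods, alignment to hg19 used Bowtie 1.2.0 with only uniquely placed reads retained, and the authors deposited raw read counts per gene under NCBI Gene identifiers. The annotation and the counting tool are not given in the sources used here. Bowtie 1 aligns without gaps, so reads across exon junctions are lost. In the GENCODE annotation of GRCh37, the assembly of hg19, 17 of the 53 genes overlap another protein-coding gene. Besides the genes given with an overlap above, these are ORC4, DBF4, GINS1, GINS2, TICRR, MTBP, RPA1, RPA3 and CHTF18, each overlapped on the opposite strand. Their counts may hold reads of the neighbour if reads were not counted by strand.

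From the deposited counts, the test took those 12559 of 23459 genes that exceeded 1 CPM in 2 or more libraries, TMM factors were calculated, and 8 h was compared with 4 h with edgeR 4.0.16 (R 4.3.3; quasi-likelihood F-test) over all of them, with Benjamini-Hochberg adjustment. Standard errors were taken as the log2FC over the root of its F statistic. Alternatives were limma-voom (limma 3.58.1), DESeq2 1.42.0, other scalings and filters, a replicate block and leaving out each library. Ratios within complexes used log2-CPM with a prior count of 2. Symbols came from RefSeq (GRCh38.p14) for 23308 identifiers. The named genes are all 53, with DEGs given in full, and, of the other lists, the DEGs and up to 3 examples, although more were named for the accessory factors and the other DNA polymerases. The genes and lists were chosen with earlier results of these data known. The replicates were called biological by the study, and with 2 per time p-values rest on a spread shared across genes (biological coefficient of variation 6.52%). Intervals cover that spread and counting error only.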

Additional observations from a re-analysis of the deposited data

How the results depend on the processing

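The fall of the replication genes did not hinge on one setting. Across limma-voom, DESeq2, library size alone, RLE size factors, no CPM filter and a CPM limit of 2, the DEGs among them numbered 20 to 24 and the genes that fell numbered 41 (DESeq2) to 48 (library size alone), with 0 higher in each. ORC6 and DSCC1, both at −1.0, stand at the fold threshold. Library size alone moved the median log2FC of all genes to −0.11 and gave POLD2 and RFC1 a log2FC of −0.09 each, and neither passed the test under any setting. The 7-base E2F words raised the share of promoters with a word to 65.9%, with 68.4% among the DEGs and 64.0% among the others. A prior count of 0.5 changed no direction of a ratio within a complex.

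With 1 library left out, the DEGs among the replication genes ranged from 21 to 24 and the genes that fell from 42 to 45. The lone library of a time is then assumed to vary like the others. The set of DEGs was not the same in each run. When some library was left out, the smallest falls of ORC6, DSCC1, TIPIN, CDC6 and PRIM1 were short of the fold threshold. Their log2FC were then −0.88, −0.84, −0.82, −0.99 and −0.99. POLD2 ranged from −0.04 to 0.07 and RFC1 from −0.06 to 0.09. With the replicate number as a block, 21 were DEGs and 48 fell. That run gave MCM3 an edgeR adjusted p of 7.05e-59, against 1.11e-09 without the block, so its p-values are not on a par with the others. The deviations of same-numbered libraries had a correlation of 0.05, so the numbers gave little sign of pairing.

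Depth limits the genes with few reads, POLE2, DBF4, MTBP, CDC7, DSCC1 and TIPIN among them, whose standard errors were 0.25 to 0.35.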
